A study of Mus musculus with 8 samples.

Results

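Myeloid C-type lectin receptors are surface proteins with which macrophages sense sugars, crystals and products of dead cells, and 10 of their genes were followed in mouse bone marrow-derived macrophages (BMDMs): Clec4a1, Clec4a2, Clec4a3, Clec4n, Clec4d, Clec4e, Clec5a, Clec7a, Clec10a and Clec12a. They were taken by name from a table of 50615 genes. All 10 passed the filter on low counts, which kept 17625 genes. The study asked what loss of Ncoa6, a coactivator of nuclear receptors and other transcription factors, does in macrophages that meet monosodium urate (MSU) crystals, the crystals of gout.

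The cells came from C57BL/6 mice and were grown from bone marrow over 6 days in 20 ng/ml M-CSF. All mice carried floxed Ncoa6 (Ncoa6 fl/fl). The Ncoa6 fl/fl LysM CRE mice (Ncoa6-KO) also expressed Cre from the lysozyme 2 locus, which is active in myeloid cells, and the mice without Cre are called Ncoa6-sufficient. No group carried Cre without floxed Ncoa6, so Cre and the loss of Ncoa6 cannot be told apart in the comparisons of genotypes. Each genotype was kept in medium alone or received 100 ng/ml LPS for 4 h, followed by 200 µg/ml MSU for 2 h (LPS + MSU), so LPS and MSU cannot be told apart. There were 4 groups of 2 libraries, those of a group from different mice, whose sex and age are not given in the sources used here. A library held between 25281955 and 33673552 expected counts. The scaling factors (TMM) were 1.23 to 1.29 in medium but 0.766 to 0.829 with LPS + MSU, a gap between conditions that touches every comparison of LPS + MSU with medium. Ncoa6 itself had 1405 and 1515 normalized counts in the Ncoa6-sufficient and 622 and 784 in the Ncoa6-KO libraries in medium, and 1173 and 1297 against 526 and 563 with LPS + MSU. The paper places the loxP sites around a single exon of Ncoa6. Counts over the whole gene can also hold reads of its other exons, so they do not measure how far that exon was lost. Normalized counts put all libraries on the same effective size, and levels below are given in them unless a length is named.

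These receptors fall into activating and inhibitory kinds. Clec4e (Mincle), Clec4d (MCL) and Clec4n (Dectin-2) signal through the adaptor Fcer1g, Clec5a (MDL-1) through the adaptor Tyrobp and Clec7a (Dectin-1) through a motif in its own tail. All of these reach the kinase Syk, and then Card9, Bcl10 and Malt1, which turn on cytokine genes. Clec4a2 (DCIR) and Clec12a (MICL) carry an inhibitory motif (ITIM) that recruits the phosphatases Ptpn6 and Ptpn11, and Clec12a is known as a receptor for urate crystals. Clec4a1 and Clec4a3 are close relatives of Clec4a2 in the DCIR family, and Clec10a (Mgl1) is an endocytic receptor for galactose-type sugars, known from alternatively activated macrophages.

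On the GRCm38 assembly, 9 of the 10 genes lie on chromosome 6. Clec4a1 (chr6:122921848-122934619, forward strand), Clec4a3 (chr6:122952515-122969875, forward), Clec4a2 (chr6:123106428-123143999, forward), Clec4n (chr6:123229843-123247021, forward), Clec4d (chr6:123262111-123275265, forward) and Clec4e (chr6:123281789-123289870, reverse) form one run. Clec4d and Clec4e point towards each other with 6523 bp between them. A second group holds Clec12a (chr6:129342691-129365303, forward) and Clec7a (chr6:129461591-129472779, reverse), 96287 bp apart. Clec5a lies far off (chr6:40574894-40585821, reverse), and Clec10a is on chromosome 11 (chr11:70156197-70170834, forward). The coding sequences of Clec4a2 and Clec4a3 were 75.6% identical, those of Clec4a1 and Clec4a3 71.6% and those of Clec4d and Clec4e 57.7%. Stretches shared with another gene, whose reads could be assigned to either, made up 2.14% of the 100-base stretches of Clec4a2 (with Clec4a4) and 2.64% of those of Clec10a (with Mgl2), and none of the other 8 genes had any. Clec4a4 itself had at most 12.5 normalized counts in a library. Clec4a2 also overlaps a processed pseudogene on the same strand, and GENCODE types Clec7a as a polymorphic pseudogene.

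The promoters of Clec4e, Clec4d, Clec12a and Clec4a2 are shown because these genes carry the results that follow: the strongest response to LPS + MSU, its neighbour, the urate receptor and the gene called lower in Ncoa6-KO BMDMs. Each is the 250 bases before the start site in RefSeq (GRCm38.p6), read 5′ to 3′ along the gene. The starts of Clec4a2 and Clec12a in RefSeq lie inside the span that GENCODE gives the gene, so another start may be in use. Capitals mark matches on either strand to motifs for C/EBP (TTNCNNAA), PU.1 (GAGGAAG) and AP-1 (TGANTCA).
Clec4e (chr6:123289872-123290121, reverse): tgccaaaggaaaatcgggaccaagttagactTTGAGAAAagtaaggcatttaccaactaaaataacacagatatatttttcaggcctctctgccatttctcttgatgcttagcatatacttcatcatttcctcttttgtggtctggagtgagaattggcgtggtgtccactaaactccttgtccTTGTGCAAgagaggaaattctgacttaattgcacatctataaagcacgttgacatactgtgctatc
Clec4d (chr6:123261857-123262106, forward): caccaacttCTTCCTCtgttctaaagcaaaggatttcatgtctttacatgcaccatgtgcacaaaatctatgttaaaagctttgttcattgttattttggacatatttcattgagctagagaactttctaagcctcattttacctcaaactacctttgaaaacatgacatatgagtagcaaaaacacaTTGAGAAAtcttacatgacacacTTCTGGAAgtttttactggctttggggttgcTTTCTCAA
Clec12a (chr6:129349994-129350243, forward): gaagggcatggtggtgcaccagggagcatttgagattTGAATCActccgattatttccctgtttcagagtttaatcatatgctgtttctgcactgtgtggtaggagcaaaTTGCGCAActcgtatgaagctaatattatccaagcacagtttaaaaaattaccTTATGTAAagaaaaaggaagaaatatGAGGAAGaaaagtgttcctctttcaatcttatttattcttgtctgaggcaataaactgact
Clec4a2 (chr6:123122440-123122689, forward): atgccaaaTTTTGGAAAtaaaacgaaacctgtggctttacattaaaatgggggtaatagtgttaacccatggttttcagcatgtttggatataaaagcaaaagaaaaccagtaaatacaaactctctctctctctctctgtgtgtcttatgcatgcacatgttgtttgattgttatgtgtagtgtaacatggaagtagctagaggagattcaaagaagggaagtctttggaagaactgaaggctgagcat

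Clec4d held 3 C/EBP matches, the nearest from -8 to -1 relative to the start site, and 1 PU.1 match. Clec4e held 2 C/EBP matches, and Clec4a2 had 2 that overlap each other. Clec12a held 1 AP-1 match, 2 places that match C/EBP and 1 PU.1 match. Among 32851 promoters of the same length, 36.8% held a C/EBP match, 10.9% at least 2 and 2.61% at least 3, while 10.6% held PU.1 and 6.75% AP-1. Promoters were found for 8 of the 10 genes, without Clec4n and Clec10a. None of the 8 held the NF-kB consensus (in 3.90% of all promoters) or the interferon response element (2.98%). These are matches of letters in a short window and say nothing about binding.

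**Figure D1:**
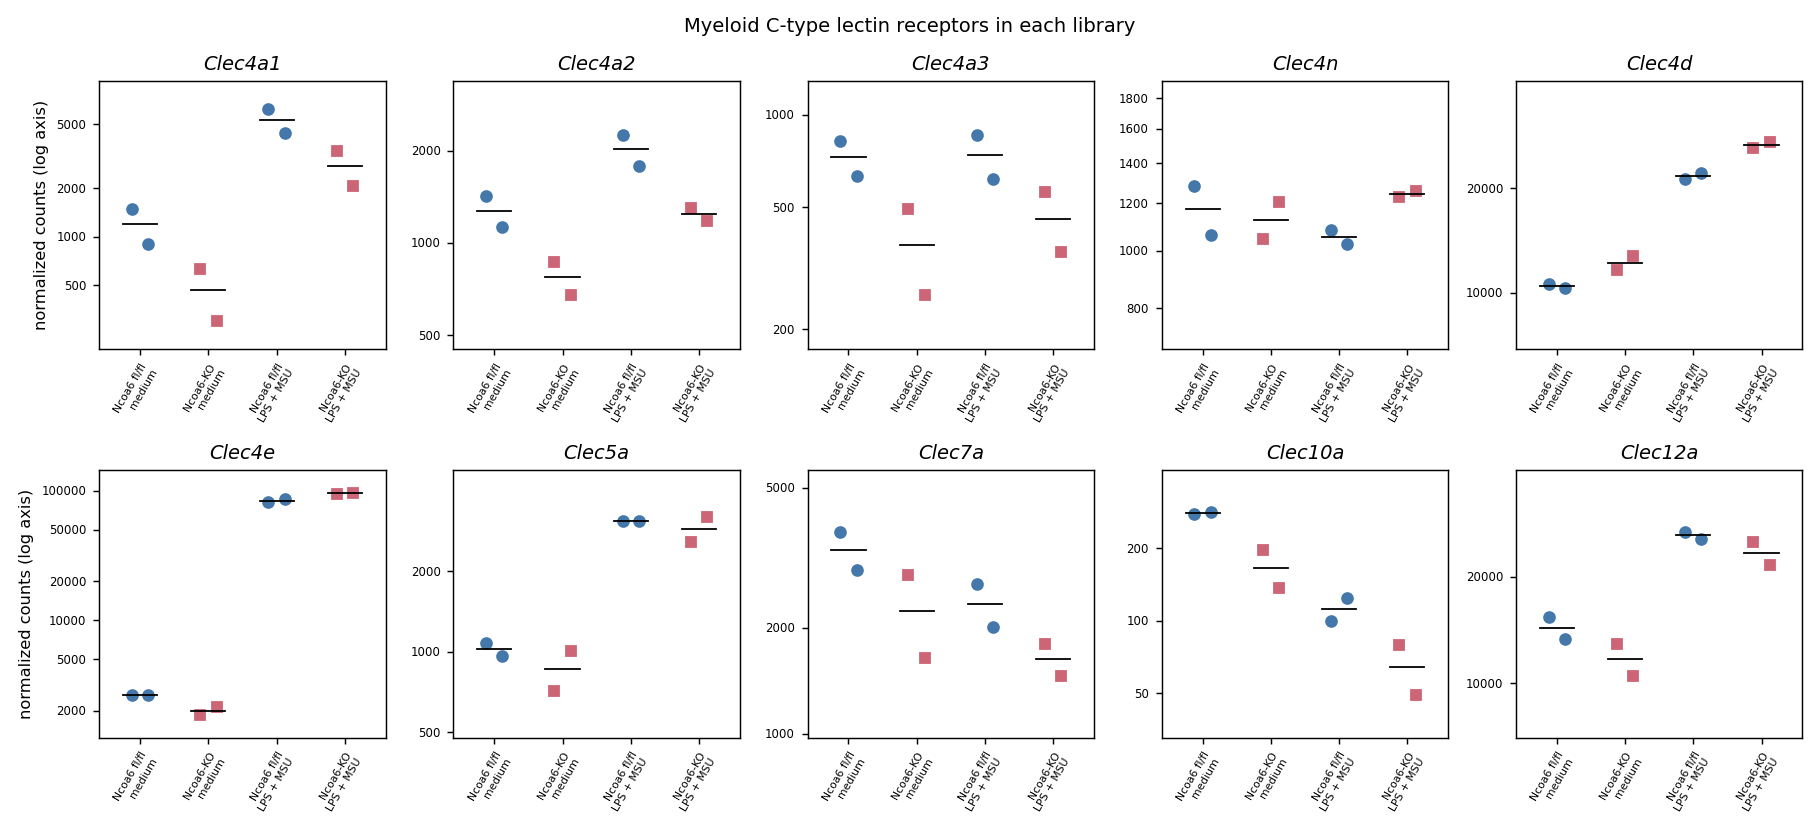
Normalized counts (vertical axes, log scale, each panel with its own range) of the 10 receptor genes in the 4 groups; points are libraries (circles Ncoa6-sufficient, squares Ncoa6-KO) and lines are group means. Clec4e runs from 81143 to 96734 in the LPS + MSU libraries and from 1855 to 2639 in medium, and the Ncoa6-KO libraries of Clec4a1, Clec4a2 and Clec4a3 lie below the Ncoa6-sufficient ones in both conditions.

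The genes were expressed at very different levels. Per kilobase of exon, Clec4d led in Ncoa6-sufficient BMDMs in medium, at 223 ± 4.02 CPM per kb (counts scaled by library size and exon length; SD, n = 2), ahead of Clec12a at 88.4 ± 8.84 and Clec7a at 43.1 ± 7.53. Clec4n (28.1 ± 3.70), Clec4a1 (26.2 ± 9.06), Clec4a3 (18.6 ± 3.46) and Clec4e (18.1 ± 0.0305) followed, and neighbours among these 4 overlapped between their libraries. Clec4a2 (14.8 ± 2.46), Clec5a (9.06 ± 0.683) and Clec10a (3.30 ± 0.0442) came last, each apart from the next. The libraries of Clec4a2 (13.1 and 16.6) still overlapped those of Clec4a3 (16.2 and 21.1), so Clec4a2 is not set off from that gene.

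With LPS + MSU, Clec4e moved from the seventh place to the first in Ncoa6-sufficient BMDMs, at 575 ± 24.8 CPM per kb (SD, n = 2), ahead of Clec4d at 464 ± 14.3 and Clec12a at 162 ± 5.07. Clec4a1 rose to the fourth place with 115 ± 27.4. Clec7a (30.2 ± 5.88) and Clec5a (27.3 ± 0.0634) overlapped, as did Clec4n (25.3 ± 0.928), Clec4a2 (23.5 ± 3.81) and Clec4a3 (19.0 ± 4.35) with their neighbours, and Clec10a was again last at 1.32 ± 0.201. In Ncoa6-KO BMDMs Clec4d led in medium (248 and 272 CPM per kb in its libraries) and Clec4e led with LPS + MSU (643 and 664, against 559 and 579 for Clec4d). With the longest transcript as the length, Clec4d (a mean of 688 CPM per kb) stood above Clec4e (676) in that last group, so their order there rests on the length used. Summed over the 10 genes, the level was 1166 and 1319 CPM in the Ncoa6-sufficient libraries in medium and 4958 and 5017 CPM with LPS + MSU, with 1044 and 1131 CPM and 5285 and 5315 CPM in Ncoa6-KO.

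LPS + MSU raised 6 of the 10 genes and lowered 1 in Ncoa6-sufficient BMDMs, and the same 7 genes were called in the same directions in Ncoa6-KO BMDMs. Clec4e, Clec5a, Clec4a1, Clec4d, Clec12a and Clec4a2 rose and Clec10a fell. A gene was called at an adjusted p-value under 0.05 (edgeR's quasi-likelihood test, Benjamini-Hochberg over 17625 genes), and 55.2% of all genes were called in Ncoa6-sufficient BMDMs and 53.1% in Ncoa6-KO BMDMs, 24.7% and 25.2% as higher and 30.5% and 27.9% as lower. At an unadjusted p-value under 0.05 it was 8 and 7 of the 10 genes, against 59.8% and 58% of all genes. Both stimulated libraries lay above both in medium for 6 genes in Ncoa6-sufficient BMDMs and 7 in Ncoa6-KO BMDMs (35.1% and 35.4% of all genes) and below for 2 and 1 (43.5% and 41.1%). The median log2 fold change of the 10 genes was 0.77 and 0.84, against -0.12 and -0.07 over all genes. Both genotypes have their own medium libraries as the reference, and the values are set side by side. When libraries were scaled by their totals alone, the median of all genes shifted by -0.66 and -0.63, and the calls became 4 higher and 4 lower in Ncoa6-sufficient BMDMs and 5 higher and 3 lower in Ncoa6-KO BMDMs. Over all genes the share of higher calls went from 44.8% to 20.6% and from 47.5% to 21.4%. This scaling was chosen after the data were seen.

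Among the activating receptors, Clec4e had 2633 and 2639 normalized counts in medium and 81143 and 86261 with LPS + MSU in Ncoa6-sufficient BMDMs. In Ncoa6-KO BMDMs it had 1855 and 2122 in medium and 93644 and 96734 with LPS + MSU. Every stimulated library lay far above every unstimulated one. The rise was 31.8-fold in Ncoa6-sufficient (log2 fold change 4.99, standard error (SE) 0.137, edgeR adjusted p = 5.20e-10) and 47.9-fold in Ncoa6-KO BMDMs (log2 fold change 5.58, SE 0.141, adjusted p = 2.98e-10). With library totals alone the log2 fold changes were 4.32 and 4.95.

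Clec4d, which forms complexes with Clec4e, was already abundant, with 10601 and 10335 normalized counts in Ncoa6-sufficient and 11654 and 12762 in Ncoa6-KO libraries in medium. With LPS + MSU it had 21273 and 22220 in Ncoa6-sufficient and 26200 and 27173 in Ncoa6-KO libraries, so that the conditions did not overlap in either genotype. It rose 2.08-fold (log2 fold change 1.05, SE 0.103, edgeR adjusted p = 5.03e-06) and 2.19-fold (1.13, SE 0.103, adjusted p = 3.16e-06). The gene 6523 bp away on the other strand, Clec4e, thus had a far larger log2 fold change in the same libraries, and both stayed higher with library totals alone, where Clec4d was at 0.38 and 0.49.

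Clec5a had 1075 and 966 normalized counts in Ncoa6-sufficient and 713 and 1006 in Ncoa6-KO libraries in medium. With LPS + MSU the values were 3085 and 3075 in Ncoa6-sufficient and 2568 and 3201 in Ncoa6-KO libraries. It rose 3.02-fold (edgeR adjusted p = 4.99e-06) and 3.36-fold (adjusted p = 2.70e-06). The genotypes overlapped in both conditions.

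Clec4n and Clec7a, the receptors for fungal mannans and beta-glucans, did not pass the test for LPS + MSU in either genotype. Clec4n had 1281 and 1063 normalized counts in Ncoa6-sufficient and 1047 and 1204 in Ncoa6-KO libraries in medium, and 1081 and 1026 in Ncoa6-sufficient and 1231 and 1258 in Ncoa6-KO libraries with LPS + MSU. Its log2 fold change was -0.16 (95% interval -0.40 to 0.09) in Ncoa6-sufficient BMDMs and 0.15 (-0.10 to 0.39) in Ncoa6-KO BMDMs. Clec7a had 3747 and 2923 in Ncoa6-sufficient and 2818 and 1646 in Ncoa6-KO libraries in medium, and 2660 and 2016 in Ncoa6-sufficient and 1794 and 1462 in Ncoa6-KO libraries with LPS + MSU. Its log2 fold changes were -0.51 (edgeR adjusted p = 0.0775) and -0.46 (adjusted p = 0.119), and its Ncoa6-KO libraries overlapped between conditions. With library totals alone, Clec7a was called lower in both genotypes (-1.19 and -1.09), and so was Clec4n (-0.83 and -0.49).

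Of the inhibitory receptors, Clec12a had 15354 and 13327 normalized counts in Ncoa6-sufficient and 12906 and 10513 in Ncoa6-KO libraries in medium. With LPS + MSU it had 26805 and 25641 in Ncoa6-sufficient and 25119 and 21549 in Ncoa6-KO libraries, all above those in medium. The log2 fold change was 0.87 (SE 0.134, edgeR adjusted p = 1.96e-04) in Ncoa6-sufficient BMDMs and 0.99 (SE 0.135, adjusted p = 7.66e-05) in Ncoa6-KO BMDMs. With library totals alone it was 0.20 (adjusted p = 0.164), no longer called, and 0.36 (adjusted p = 0.0206), so the size of its rise, and in Ncoa6-sufficient BMDMs the call, depends on the scaling.

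Clec4a2 had 1421 and 1123 normalized counts in Ncoa6-sufficient and 867 and 674 in Ncoa6-KO libraries in medium, and 2250 and 1788 in Ncoa6-sufficient and 1302 and 1175 in Ncoa6-KO libraries with LPS + MSU. Within each genotype the conditions did not overlap. It rose by 0.67 (SE 0.154, edgeR adjusted p = 0.00331) and 0.68 (SE 0.158, adjusted p = 0.00350) on the log2 scale, but with library totals alone the values were -0.01 and 0.05 and neither was called.

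Its relatives went different ways. Clec4a1 had 1490 and 904 normalized counts in Ncoa6-sufficient and 632 and 301 in Ncoa6-KO libraries in medium. With LPS + MSU it had 6162 and 4393 in Ncoa6-sufficient and 3404 and 2066 in Ncoa6-KO libraries. It rose 4.40-fold (log2 fold change 2.14, SE 0.342, edgeR adjusted p = 2.54e-04) and 5.82-fold (2.54, SE 0.356, adjusted p = 9.87e-05), and stayed higher with library totals alone (1.47 and 1.91).

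Clec4a3, the next gene along the chromosome, had 821 and 630 normalized counts in Ncoa6-sufficient and 492 and 258 in Ncoa6-KO libraries in medium. With LPS + MSU it had 859 and 620 in Ncoa6-sufficient and 559 and 357 in Ncoa6-KO libraries, and the conditions overlapped in both genotypes. The log2 fold changes were 0.03 (95% interval -0.59 to 0.64) and 0.28 (-0.37 to 0.93), turning to -0.65 (edgeR adjusted p = 0.0497) and -0.35 with library totals alone.

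Clec10a was the gene that fell. It had 278 and 283 normalized counts in Ncoa6-sufficient and 196 and 137 in Ncoa6-KO libraries in medium, and 99.7 and 124 in Ncoa6-sufficient and 79.7 and 49.0 in Ncoa6-KO libraries with LPS + MSU. No library with LPS + MSU reached the lowest of its genotype in medium. The log2 fold change was -1.32 (SE 0.228, edgeR adjusted p = 4.39e-04) and -1.37 (SE 0.249, adjusted p = 7.00e-04), and with library totals alone -1.99 and -2.00.

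**Figure D2:**
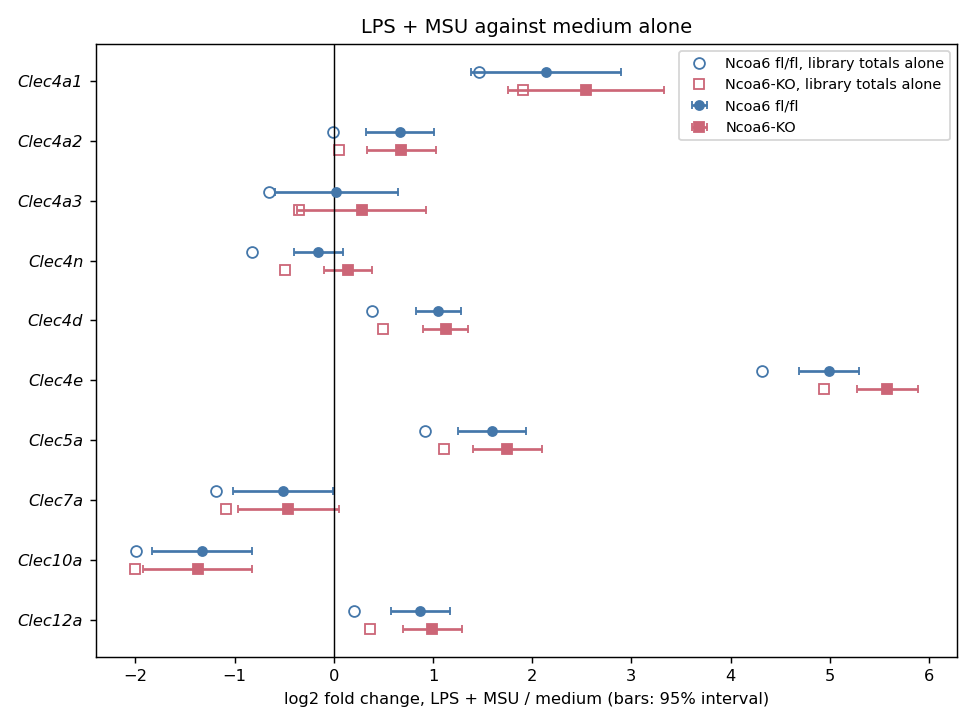
Log2 fold change of LPS + MSU against medium alone (horizontal axis) for the 10 genes; filled points with bars are the fitted values with 95% intervals (circles Ncoa6-sufficient, squares Ncoa6-KO) and open points are the values with library totals alone. Clec4e lies at 4.99 and 5.58, and the open points of Clec4a2 lie at -0.01 and 0.05.

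Between genotypes, 1 of the 10 genes was called, Clec4a2, which was lower in Ncoa6-KO BMDMs in both conditions. Over all genes, 1.88% were called in medium (1.3% lower, 0.573% higher) and 3.59% with LPS + MSU (1.63% lower, 1.96% higher). With LPS + MSU these were 345 higher and 287 lower, which became 480 and 218 with library totals alone and 344 and 505 with DESeq2. Clec4a2 was at 60.7% of the Ncoa6-sufficient level in medium (log2 fold change -0.72, SE 0.156, edgeR adjusted p = 0.0456) and at 61.4% with LPS + MSU (-0.70, SE 0.156, adjusted p = 0.0353). The libraries listed above show no overlap between genotypes in either condition. The call in medium was lost when any 1 of the libraries was left out other than library 1 of Ncoa6-KO BMDMs in medium, with adjusted p-values from 0.0521 to 0.470, and also with DESeq2's size factors in edgeR (0.0534), filterByExpr (0.0558) and only the 4 libraries compared (0.0605). The call with LPS + MSU was lost without library 1 of Ncoa6-sufficient BMDMs (adjusted p = 0.270) or library 1 (0.0764) or 2 (0.258) of Ncoa6-KO BMDMs with LPS + MSU.

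The other 2 DCIR genes had larger log2 fold changes with wider errors. Clec4a1 was at 39.2% in medium (-1.35, SE 0.347, edgeR adjusted p = 0.0871) and at 51.9% with LPS + MSU (-0.95, SE 0.331, adjusted p = 0.163). Clec4a3 was at 52.0% (-0.94, SE 0.283, adjusted p = 0.145) and 62.1% (-0.69, SE 0.293, adjusted p = 0.255). Neither passed, although for both genes each Ncoa6-KO library lay below both Ncoa6-sufficient libraries in each condition. When each library was left out, the log2 fold change in medium ran from -1.99 to -0.92 for Clec4a1 and from -1.49 to -0.56 for Clec4a3. The values of -1.99 and -1.49 came without library 1 of Ncoa6-KO BMDMs in medium, which left that group with 1 library. DESeq2 called Clec4a3 in medium (-0.93, adjusted p = 0.0239), where the edgeR fit reported did not. The DCIR genes and Clec10a are in the list of changed genes that the study drew from these same libraries, so their direction here is no independent evidence.

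Clec10a was at 59.7% of the Ncoa6-sufficient level in medium (log2 fold change -0.74, SE 0.210, edgeR adjusted p = 0.118) and at 57.8% with LPS + MSU (-0.79, SE 0.268, adjusted p = 0.150). Its genotypes did not overlap in either condition. Clec7a was at 67.0% (-0.58, edgeR adjusted p = 0.289) and 69.7% (-0.52, adjusted p = 0.274), also without overlap. When each library was left out, its log2 fold change in medium ran from -1.02 to -0.24. The value of -1.02 came without library 1 of Ncoa6-KO BMDMs in medium, which left that group with 1 library.

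For the urate receptor Clec12a the log2 fold change between genotypes was -0.29 (95% interval -0.59 to 0.00) in medium and -0.17 (-0.46 to 0.13) with LPS + MSU, with adjusted p-values of 0.394 and 0.578 from edgeR. Its Ncoa6-KO libraries lay below the Ncoa6-sufficient ones in both conditions, but the difference did not pass the test in either. As a fold, the interval with LPS + MSU reaches from 0.725 to 1.09.

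The 3 Fcer1g-coupled receptors had fitted levels above the Ncoa6-sufficient ones with LPS + MSU. Clec4d was at 117% in medium (log2 fold change 0.22, SE 0.102, edgeR adjusted p = 0.398) and at 123% with LPS + MSU (0.30, SE 0.102, adjusted p = 0.158). Clec4n was at 95.9% in medium, where the genotypes overlapped, and at 118% with LPS + MSU (0.24, SE 0.113, adjusted p = 0.308). Clec4e was at 75.4% in medium (-0.41, SE 0.117, adjusted p = 0.126) and at 114% with LPS + MSU (0.19, SE 0.115, adjusted p = 0.459). None passed here, and in medium Clec4e was called by DESeq2 (-0.39, adjusted p = 0.00992) and by limma-voom (-0.41, adjusted p = 0.0459), with adjusted p-values from 0.00992 to 0.531 over all alternatives. Clec5a was at 84.1% and 93.6%, with adjusted p-values of 0.576 and 0.811.

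In counts of libraries, 7 of the 10 genes lay lower in both Ncoa6-KO libraries in medium and 1 lay higher, where 24.5% and 18.6% of all genes did. With LPS + MSU it was 6 lower and 3 higher, where 22.7% and 24.7% of all genes did. At an unadjusted p-value under 0.05 there were 6 genes in each condition, against 12.8% and 17.4% of all genes. The median log2 fold change of the 10 genes was -0.49 in medium and -0.34 with LPS + MSU, against -0.03 and 0.00 over all genes. Neighbours on a chromosome and related genes are not independent of each other. These are counts and medians of genes chosen with results of these data known.

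**Figure D3:**
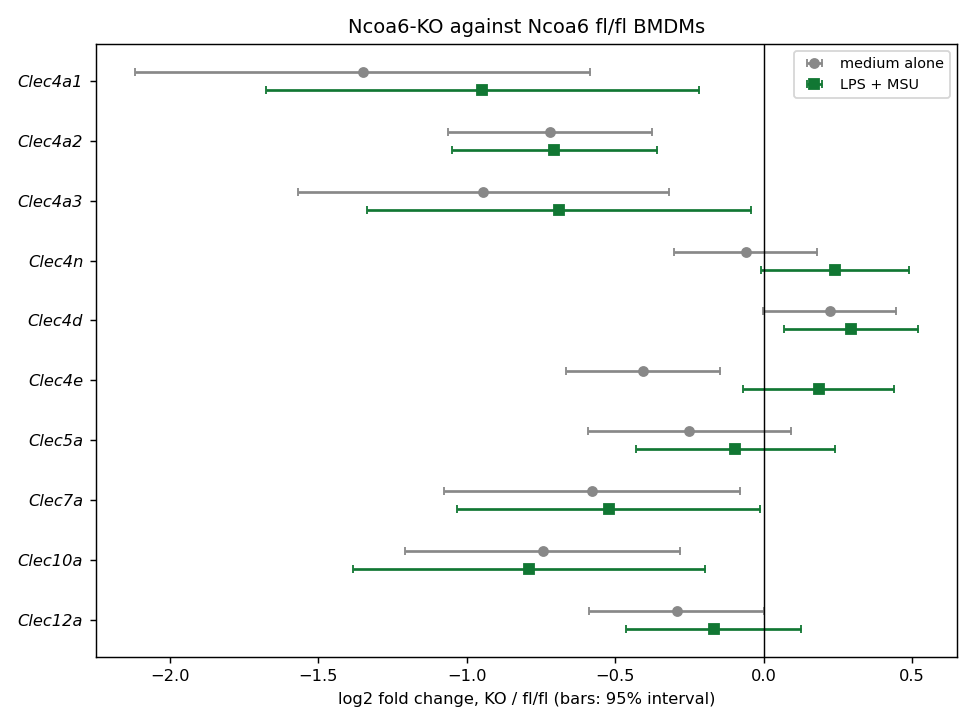
Log2 fold change of Ncoa6-KO against Ncoa6-sufficient BMDMs (horizontal axis) for the 10 genes, with 95% intervals; circles are medium alone and squares LPS + MSU. Clec4a2 (-0.72 and -0.70) is the gene called in both conditions, and Clec4e lies at -0.41 in medium and 0.19 with LPS + MSU.

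Whether the knockout effect itself differed between conditions was tested as an interaction. None of the 10 genes and none of the 17625 genes (0%) passed in edgeR, while 5.93% of all genes had an unadjusted p-value under 0.05 and DESeq2 called 45 genes. Clec4e had the smallest p-value of the 10, with a difference of 0.59 on the log2 scale (SE 0.165, 95% interval 0.23 to 0.96, unadjusted p = 0.00430, edgeR adjusted p = 0.536). DESeq2 called Clec4e at 0.54 (adjusted p = 0.0493, with 4.70e-04 to 1.00 over all alternatives), and leaving out each library in turn gave 0.50 to 0.69. Its libraries, lower in Ncoa6-KO in medium and higher with LPS + MSU, did not overlap between genotypes in either condition. For the other 9 genes the difference ran from -0.05 for Clec10a to 0.40 for Clec4a1, with adjusted p-values of 0.883 or more. For Clec12a the interval was -0.29 to 0.54, and for Clec4a1 it was -0.65 to 1.45, wide enough to hold large differences in both directions.

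The libraries of a group differed by different amounts from gene to gene. Library 1 was above library 2 in all 4 groups for Clec4a1, by 0.49 to 1.06 on the log2 CPM scale, for Clec4a3, by 0.38 to 0.93, and for Clec7a, by 0.30 to 0.78. The same held for Clec4a2, by 0.15 to 0.36, and for Clec12a, by 0.06 to 0.30. For Clec4d the differences ran from -0.13 to 0.04 and for Clec4e from -0.19 to -0.0034. Clec10a (-0.31 to 0.68), Clec5a (-0.50 to 0.15) and Clec4n (-0.20 to 0.27) had differences of both signs. The labels do not say that libraries with the same number share a mouse or a day, and no pairing by number was assumed. If cultures of the same mice were used in both conditions, the genotype differences in medium and with LPS + MSU are not independent of each other.

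**Figure D4:**
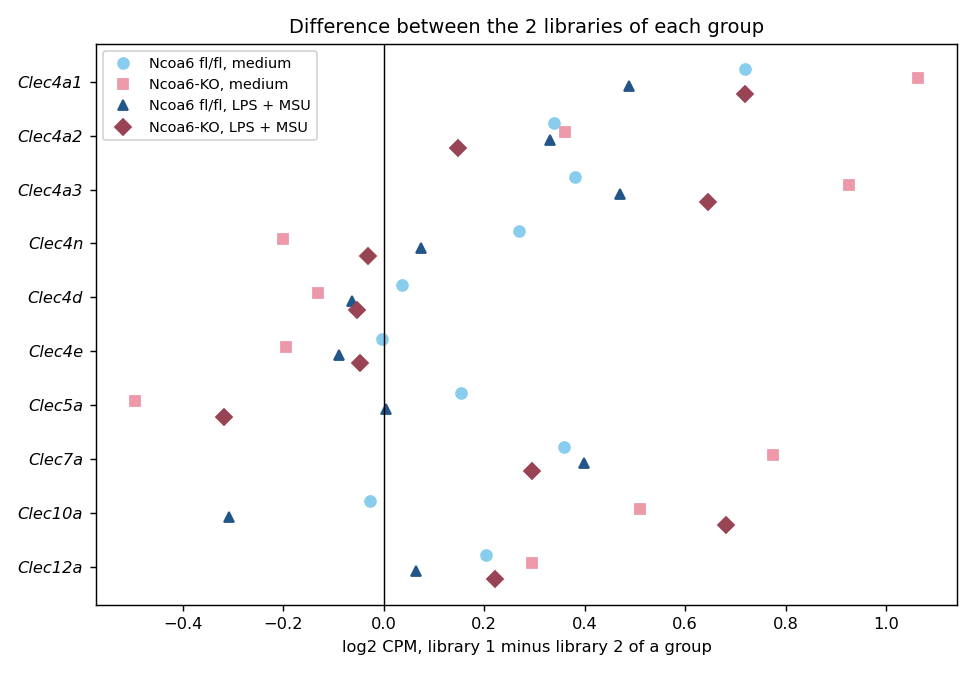
Difference of log2 CPM between library 1 and library 2 of each group (horizontal axis) for the 10 genes; each point is 1 group. All 4 points lie above 0 for Clec4a1, Clec4a2, Clec4a3, Clec7a and Clec12a, up to 1.06 for Clec4a1 in Ncoa6-KO BMDMs in medium.

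Likeness of pattern was measured as the root mean square difference of centred log2 CPM over the 8 libraries, among 11207 genes whose mean reached 50 normalized counts. The genes nearest to Clec12a were Acp2 (0.0337), Surf4 (0.0383) and Ppt2 (0.0460). Nearest to Clec4e were Icam1 (0.131), Ifih1 (0.203) and Ccl2 (0.214), and nearest to Clec4a2 were Naaa (0.118), Shisa5 (0.124) and Tifab (0.142). Within the family the closest pairs were Clec4a2 with Clec12a (0.282), Clec4d with Clec12a (0.293) and Clec4a2 with Clec4a3 (0.334). Clec4d and Clec4e, which share a signalling complex, were 2.11 apart. All libraries enter each distance, so the shared step between conditions weighs in all of them.

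The signalling genes below the receptors were counted from lists chosen with earlier results of these data known. For every list below, the shares of all genes called between genotypes were 1.3% lower and 0.573% higher in medium. With LPS + MSU they were 1.63% and 1.96%. For LPS + MSU against medium, 24.7% were higher and 30.5% lower in Ncoa6-sufficient BMDMs, and 25.2% and 27.9% in Ncoa6-KO BMDMs. With library totals alone it was 2498 higher and 9653 lower of 17625 genes, and 2540 and 9313. Of 18 activating signalling genes, 1 was lower in Ncoa6-KO BMDMs in medium, and 2 were lower and 1 higher with LPS + MSU. Vav3, a guanine nucleotide exchange factor, was lower (log2 fold change -0.71, edgeR adjusted p = 0.0431) and the kinase Src higher (0.67, adjusted p = 0.0258) with LPS + MSU. LPS + MSU raised 9 and lowered 3 of the 18 in Ncoa6-sufficient BMDMs and raised 9 and lowered 2 in Ncoa6-KO BMDMs, with Malt1 (4.38 and 4.58) and Src (4.22 and 4.26) at the largest log2 fold changes. Scaled by library totals alone, it was 7 raised and 8 lowered, and 8 raised and 7 lowered. The median of the 18 between genotypes was -0.10 in medium and -0.07 with LPS + MSU.

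Of 11 inhibitory signalling genes, Ptpn6, the phosphatase SHP-1 that binds ITIMs, was lower in Ncoa6-KO BMDMs in both conditions (log2 fold change -0.59, adjusted p = 0.0317, and -0.48, adjusted p = 0.0498, from edgeR). The adaptor Dok2 was also lower with LPS + MSU (-0.80, adjusted p = 0.0386). With library totals alone neither was called with LPS + MSU (adjusted p = 0.0593 for Ptpn6 and 0.0598 for Dok2). LPS + MSU raised 6 and lowered 4 of these genes in Ncoa6-sufficient BMDMs, and raised 6 and lowered 3 in Ncoa6-KO BMDMs. Inpp5d, which encodes the lipid phosphatase SHIP1, had log2 fold changes of -2.77 and -2.95, and Ptprc (CD45) of 1.57 and 1.56. The counts were 2 raised and 5 lowered, and 1 raised and 5 lowered, with library totals alone. The median of the 11 between genotypes was -0.08 in medium and -0.13 with LPS + MSU.

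Another 38 C-type lectin genes were listed, of which 23 passed the filter. Clec2i, a ligand of a natural killer cell receptor, was higher in Ncoa6-KO BMDMs in both conditions (log2 fold change 0.74, adjusted p = 0.0172, and 1.41, adjusted p = 0.00596, from edgeR). So was the scavenger receptor Colec12 (0.45, adjusted p = 0.0363, and 0.44, adjusted p = 0.0318). None of the 23 was called lower. LPS + MSU raised 10 and lowered 5 in Ncoa6-sufficient BMDMs, and raised 10 and lowered 4 in Ncoa6-KO BMDMs, led by the activation marker Cd69 (9.80 and 10.3) and the oxidized LDL receptor Olr1 (4.98 and 5.80). These became 8 raised and 5 lowered, and 8 raised and 7 lowered, with library totals alone.

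Of 11 cytokine genes that Syk and Card9 are known to induce, 2 were lower in Ncoa6-KO BMDMs in medium (Il1b, -1.65, and Tnf, -0.72) and 3 with LPS + MSU (Il1b, -0.74, Il10, -1.94, and Csf3, -1.07), and none was higher. Il1b was near the floor in medium, at 15.5 and 18.8 normalized counts in Ncoa6-sufficient and 3.51 and 6.95 in Ncoa6-KO libraries. With LPS + MSU it had 29707 and 31995 against 18367 and 18637. LPS + MSU raised 10 of them in Ncoa6-sufficient BMDMs and 11 in Ncoa6-KO BMDMs, and Il6 and Il12b had the largest log2 fold changes. Of 10 transcription factors known to act on these receptors, Cebpa was higher in Ncoa6-KO BMDMs with LPS + MSU (log2 fold change 1.86, edgeR adjusted p = 0.0107) and Cebpd lower (-0.78, adjusted p = 0.0205), and none was called in medium. LPS + MSU raised 7 and lowered 2 of the 10 in Ncoa6-sufficient BMDMs, and raised 6 and lowered 2 in Ncoa6-KO BMDMs. The log2 fold changes were -6.05 and -4.29 for Cebpa and 3.82 and 3.35 for Cebpd. With library totals alone, LPS + MSU raised 10 of the cytokine genes in each genotype, and raised 6 and lowered 3 of the transcription factors in Ncoa6-sufficient and raised 5 and lowered 3 in Ncoa6-KO BMDMs.

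Markers of macrophages moved with the genotype beside these genes. Of 10 markers, 3 were called lower in Ncoa6-KO BMDMs in medium (Fcgr1, Cd14 and Lyz2) and 4 with LPS + MSU (Fcgr1, Lyz2 and Itgam among them). Over all genes, 1.3% and 1.63% were called lower. The Ncoa6-KO mice carry Cre at Lyz2, so the lower call of Lyz2 cannot be told apart from the presence of Cre. Their summed level was 13326 and 15625 CPM in Ncoa6-sufficient and 8547 and 9885 CPM in Ncoa6-KO libraries in medium, and 17341 and 19719 CPM against 12528 and 13428 CPM with LPS + MSU. Without Lyz2, the locus that carries Cre, the sums were 6171 and 6349 CPM against 4729 and 5536 CPM, and 9932 and 10503 CPM against 8325 and 9017 CPM. In RNA of whole cultures, fewer cells of a kind and less RNA per cell cannot be told apart, and the part of these markers in the values of the DCIR genes was not tested.

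Markers of other cells that express these receptors were low. The 5 markers of monocytes summed to 14.1 and 14.8 CPM in Ncoa6-sufficient and 19.6 and 30.0 CPM in Ncoa6-KO libraries in medium, and to 28.5 and 48.3 CPM against 31.5 CPM in both libraries with LPS + MSU. The 12 of neutrophils summed to between 19.7 and 39.2 CPM over all libraries and the 10 of dendritic cells to between 25.02 and 52.36 CPM. Those of B cells reached at most 1.71 CPM, of T and NK cells 0.142 CPM, of mast cells and basophils 0.0587 CPM and of stromal cells 16.9 CPM. None of these markers was called between genotypes in either condition by edgeR, and of the T and NK cell and mast cell markers none had enough counts to be tested.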

How the data were processed

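Stranded poly(A) libraries of 8 BMDM cultures were sequenced in read pairs. The authors aligned the reads with STAR 2.7.3a to GRCm38 and deposited expected counts per gene from RSEM 1.3.3, without normalization (annotation release 101). The strand setting of the counting is not given in the sources used here.

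Expected counts were rounded, and a gene entered the fit if its 8 libraries together held at least 10. The 4 groups were fitted together in edgeR 4.0.16 (R 4.3.3) with TMM factors and the quasi-likelihood test, with 4 residual degrees of freedom before sharing of the spread among genes. p-values were adjusted by the Benjamini-Hochberg method over 17625 genes and a gene was called at 0.05. An exact two-sided permutation test of 2 libraries against 2 cannot go below 0.333, so p-values rest on this fit. Its spread is pooled over the 4 groups of 2 libraries and shared among genes. CPM use a prior count of 2 on the log2 scale. DESeq2 1.42.0, limma 3.58.1 and the other alternatives are named in the closing section. All 10 receptors are named. A gene of another list is named where a knockout comparison called it, or where its log2 fold change for LPS + MSU was among the 2 largest of its list (called, mean of at least 50 normalized counts). The 3 nearest genes are named for Clec12a, Clec4e and Clec4a2. Members and lists were chosen with earlier results of these data known. Gene positions are from GENCODE and promoters from RefSeq. Counts resolve no single exon, allele or transcript. Values of some listed genes are not reported here.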

Additional observations from a re-analysis of the deposited data

How the results depend on the processing

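With 2 libraries per group, calls between genotypes depended on the fit, while directions mostly did not. The number of the 10 receptors called in medium, 1 in the fit reported, was 3 with DESeq2, 2 with limma-voom on unrounded counts, 6 without a filter on low counts, and 0 with DESeq2's size factors in edgeR, with filterByExpr or with only the 4 libraries compared. It was 0 to 4 when each library was left out. With LPS + MSU it was 1, 5 without a filter, and 0 to 1 when each library was left out. Over all genes, leaving the filter out raised the calls from 331 to 1152 and from 632 to 1611, and DESeq2 gave 506 in medium. Without the filter, edgeR shared the spread among genes with infinite prior degrees of freedom, against 6.77 in the fit reported. A gene's own spread thus had no weight in the fit without a filter. For the difference of the knockout effects it was 0, and 1 with DESeq2 (Clec4e, adjusted p = 0.0493). The cause was not tested. For LPS + MSU against medium, 6 receptors were called higher and 1 lower in each genotype with DESeq2's size factors in edgeR, as in the fit reported. With library totals alone it was 4 higher and 4 lower in Ncoa6-sufficient BMDMs, and 5 higher and 3 lower in Ncoa6-KO BMDMs. That scaling also raised the calls over all 17625 genes, from 9737 to 12151 and from 9359 to 11853.

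The replicate number as a block across all groups raised the calls between genotypes to 6 in medium (Clec4a1, Clec4a2, Clec4a3, Clec4e, Clec7a and Clec10a) and 5 with LPS + MSU (Clec4a1, Clec4a2, Clec4a3, Clec4d and Clec7a), and those over all genes to 1023 and 1532. As a block within each genotype it called 1 receptor for the difference of the knockout effects (Clec4e, 0.60, adjusted p = 4.70e-04). The numbers are not stated to pair libraries, and the correlations of the library differences between groups ran from 0.0523 to 0.369 over 11219 genes.

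Turned directions were those of uncalled or scaling-dependent values. With library totals alone, a scaling added after the data were seen, LPS + MSU gave -0.0069 for Clec4a2 and -0.65 for Clec4a3 in Ncoa6-sufficient BMDMs, and -0.35 for Clec4a3 and -0.49 for Clec4n in Ncoa6-KO BMDMs. Without a filter, Clec4a3 was at -0.0026 in Ncoa6-sufficient BMDMs. For Clec4a2 the difference of the knockout effects was -0.038 with DESeq2 and -0.039 with its size factors in edgeR. When each library was left out, the knockout effect on Clec4n in medium ran from -0.19 to 0.082, that on Clec5a with LPS + MSU from -0.27 to 0.038, and the effect of LPS + MSU on Clec4a3 from -0.18 to 0.29 in Ncoa6-sufficient BMDMs and from -0.10 to 0.83 in Ncoa6-KO BMDMs. The difference of the knockout effects then ran from -0.055 to 1.04 for Clec4a1, -0.19 to 0.21 for Clec4a2, -0.16 to 0.80 for Clec4a3, -0.0075 to 0.14 for Clec4d, -0.076 to 0.42 for Clec5a, -0.28 to 0.50 for Clec7a, -0.50 to 0.24 for Clec10a and -0.046 to 0.28 for Clec12a. A group left with 1 library was assumed to vary like the others. Clec10a had the fewest counts, down to 49.0 normalized counts in a library, and so the least depth behind its values.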
